A study of Mus musculus with 7 samples.

Results

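YAP (gene Yap1) and TAZ (gene Wwtr1), the transcription factor Tead1, the Hippo kinase Lats2 and 5 genes named as targets or partners of this pathway (Ctgf, Cyr61, Ankrd1, Amotl2 and Ajuba) were followed in sorted mouse skin tumour cells. They are 9 of 18193 genes and are read by 22 of 34945 probe sets with 1 gene symbol. They were taken by name, and every such probe set is given below. The current symbols of Ctgf and Cyr61 are Ccn2 and Ccn1, and both were matched through RefSeq synonyms.

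Cells positive for Cd34 and Epcam had been isolated by flow cytometry from skin tumours raised with the carcinogen DMBA and the promoter TPA, and their RNA was read on 7 Affymetrix arrays. Papillomas, which are benign, gave 3 arrays (1, 2 and GFP), and carcinomas, which are malignant, gave 4 (1, 2, 3 and GFP). The GFP tag stands in the title in place of a number and is not explained in the labels. Neither strain, age, transgenes nor the number of animals behind an array could be read from the labels, and the sample descriptions place Nr2f2 before the tumour type without a genotype. The p-values therefore measure only the spread between these arrays, and the number of arrays limits every value.

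The Hippo pathway is a kinase cascade that holds back growth. Mst kinases activate the Lats kinases, Lats kinases phosphorylate YAP and TAZ, and phosphorylated YAP and TAZ are kept out of the nucleus or degraded. Free YAP and TAZ bind TEAD factors on DNA and switch on genes such as Ctgf, Cyr61 and Ankrd1, and also Lats2 and Amotl2, which act back on the pathway. In mouse skin, YAP and TAZ are known for sustaining proliferation of basal keratinocytes and the growth of squamous tumours. Because activity is set largely by phosphorylation and location, RNA levels of Yap1 and Wwtr1 do not measure it.

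TEAD factors bind the letters GGAATG, or CATTCC on the other strand, so the promoters of 3 target genes in which these letters were found are shown. Promoter windows from RefSeq (GRCm38.p6) existed for 7 of the 9 genes, and the entries of Ctgf and Tead1 were missing. Over the 250 bases before the start, both strands, 6 of these 7 genes (Yap1, Wwtr1, Cyr61, Ankrd1, Amotl2 and Ajuba, not Lats2) held the letters in at least 1 window, against 12.6% of all 32851 windows. The members are counted by gene, over 9 windows in all, and the percentage by window, so the units differ. Of the 7 genes, 0 held TGANTCA, the letters of AP-1 factors, which occurred in 6.75% of windows. The windows below run 5′ to 3′ along the gene, lie on the minus strand for Cyr61 (chr3:145649986-145650235) and Ankrd1 (chr19:36119845-36120094) and on the plus strand for Amotl2 (chr9:102717554-102717803), and have the matches in capitals. A match describes letters and is not evidence of a bound site.
Cyr61: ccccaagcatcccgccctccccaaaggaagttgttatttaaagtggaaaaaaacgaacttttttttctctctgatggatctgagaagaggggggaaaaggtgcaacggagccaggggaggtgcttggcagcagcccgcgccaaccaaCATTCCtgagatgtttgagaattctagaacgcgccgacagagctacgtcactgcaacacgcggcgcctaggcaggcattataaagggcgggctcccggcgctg
Ankrd1: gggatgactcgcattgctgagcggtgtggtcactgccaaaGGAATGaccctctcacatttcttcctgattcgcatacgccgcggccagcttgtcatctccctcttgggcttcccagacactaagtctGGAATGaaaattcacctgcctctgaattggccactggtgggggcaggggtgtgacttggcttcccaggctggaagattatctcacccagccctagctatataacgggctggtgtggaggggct
Amotl2: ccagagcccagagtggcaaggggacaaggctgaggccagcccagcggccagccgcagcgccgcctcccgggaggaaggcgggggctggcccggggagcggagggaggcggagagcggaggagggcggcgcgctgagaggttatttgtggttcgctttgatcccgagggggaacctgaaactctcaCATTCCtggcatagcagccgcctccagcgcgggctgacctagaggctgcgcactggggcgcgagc
Counted in bases from the start, the match lay at -103 in Cyr61 and at -65 in Amotl2, both on the opposite strand. Ankrd1 held a pair of matches on its own strand, at -210 and -123.

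Both GFP arrays stood apart from the other 5 in ways that touch each result below. On the log2 scale of the deposited values, the mean of 15 endothelial markers was 10.85 to 10.86 in the GFP arrays and spanned 5.41 to 5.83 in the untagged ones. The means of 14 fibroblast markers were 9.40 to 10.48 against 5.63 to 7.02, of 12 pericyte and smooth muscle markers 8.69 to 9.25 against 5.66 to 6.68, and of 11 myeloid and lymphoid markers 6.53 to 7.01 against 5.35 to 5.88. With a threshold of 0.05 on the adjusted p, 15, 12, 9 and 5 of these genes passed as higher and 0 as lower, where 11.9% of all genes passed as higher and 7.93% as lower. With arrays centred on the gene median 3 of the 11 myeloid and lymphoid markers passed as higher, where 1759 of 18193 genes did. Of 12 keratinocyte markers 8 passed as lower, and their mean was 10.50 to 10.57 against 11.60 to 12.13. Kdr, an endothelial growth factor receptor, had means of 12.49 with the tag and 6.39 without, Cdh5 11.16 and 4.91, the fibroblast collagen Col1a1 12.11 and 7.34, the pericyte receptor Pdgfrb 10.96 and 4.73, Acta2 12.32 and 9.30, and the leukocyte antigen Ptprc 8.63 and 5.57. Epcam, an antigen of the sort, averaged 8.94 and 11.39 and the basal keratin Krt5 12.95 and 13.35. The means of 6 melanocyte and Schwann markers (6.11 to 6.37 against 5.11 to 6.23, 2 higher) and of 8 striated muscle markers (5.03 to 5.12 against 5.09 to 5.31, 0 passing) overlapped. The 3′ minus 5′ difference of the Gapdh control probe sets, which grows as labelled RNA shortens, was 3.19 in both GFP arrays and -0.04 to 0.06 in the others. The part of these features in the levels of the 9 genes was not tested, and in sorted bulk RNA fewer cells of a type and less RNA per cell cannot be told apart.

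**Figure D1:**
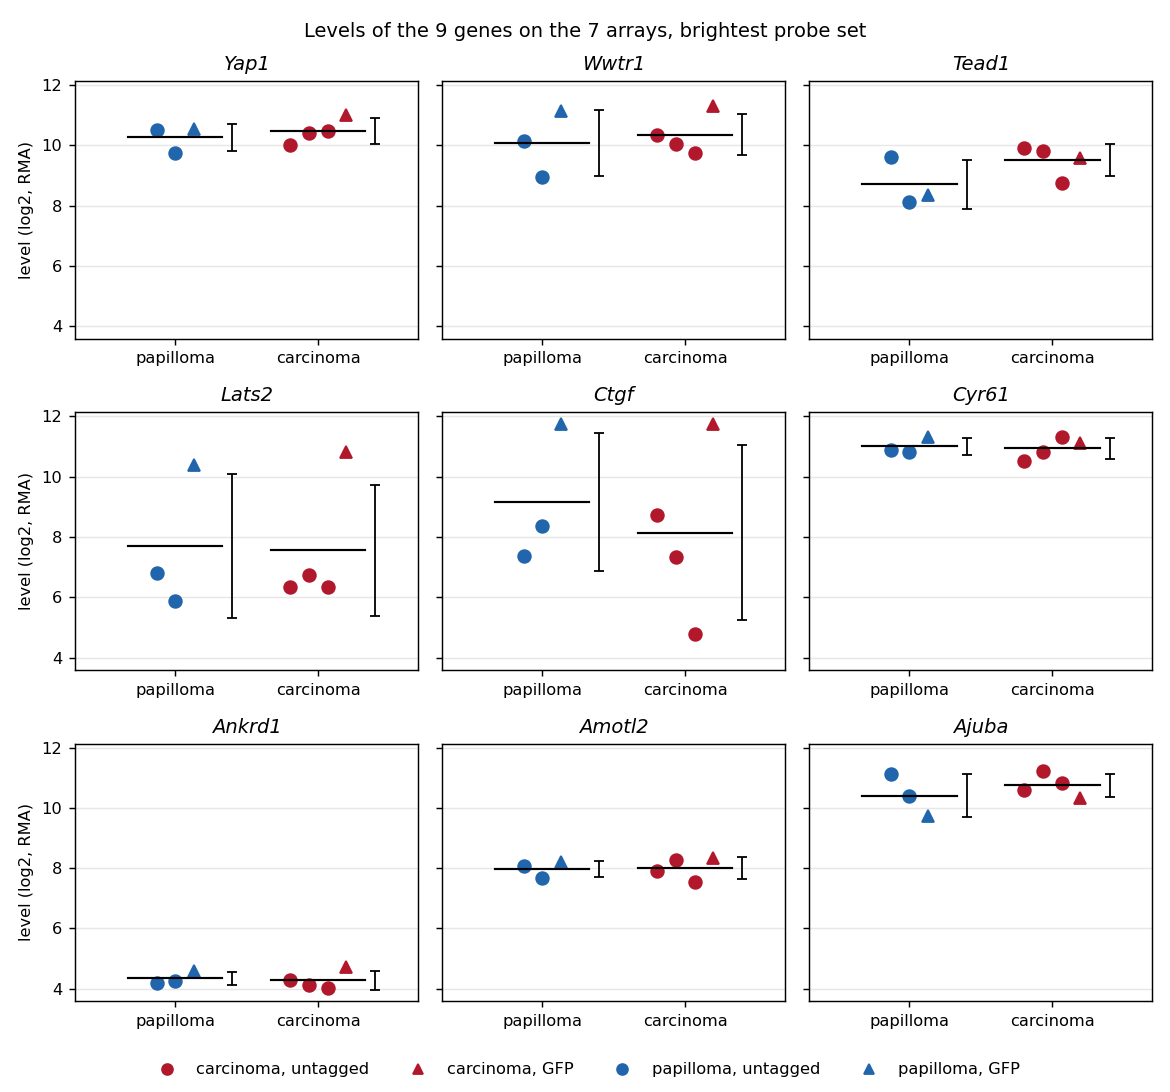
Level of each of the 9 genes (log2, brightest probe set) on 3 papilloma and 4 carcinoma arrays. Triangles are the GFP arrays, circles the untagged arrays, lines the group means and bars 1 SD. Ctgf and Lats2 spread most, with both GFP arrays on top, while the tumour types overlap for all 9 genes.

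By tumour type, none of the 9 genes passed the test. Carcinoma was compared with papilloma by limma over all 18193 genes, with Benjamini-Hochberg adjustment over all of them. The test called 0 of 9 members and 0 of 18193 genes (0%), with 0 members and 112 genes at an unadjusted p under 0.05. This fit held no term for the tag, so the spread between GFP and untagged arrays counted as error. With the GFP tag as a covariate, limma gave 331 genes at an unadjusted p under 0.05 and called 0. The absence of calls is therefore not evidence of equal levels. No member had tumour types that did not overlap (0 of 9, against 1.42% of all genes). Carcinoma means were higher for 5 members and lower for 4, with a median difference of 0.03 log2 units, against -0.02 over all genes. Exact two-sided permutation tests of the single members gave p from 0.171 to 0.971, where 4 against 3 arrays cannot go below 0.0571.

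Yap1, which encodes the coactivator YAP, was at 10.00, 10.43, 10.47 and 11.01 in carcinoma 1, 2, 3 and GFP. Papilloma 1, 2 and GFP had 10.52, 9.76 and 10.53. These arrays overlap, with carcinoma GFP highest and papilloma 2 lowest. The carcinoma mean exceeded the papilloma mean by 0.21 (SE 0.31), with 10.48 ± 0.42 (SD, n = 4) and 10.27 ± 0.44 (SD, n = 3). A second probe set, 1416487_a_at, gave 0.56 (SE 0.35) and there carcinoma 1 was highest, at 8.83, and papilloma GFP lowest, at 7.19.

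Wwtr1, which encodes TAZ, the close relative of YAP, was at 10.33, 10.05, 9.76 and 11.30 in carcinoma 1, 2, 3 and GFP. In papilloma 1, 2 and GFP it was at 10.14, 8.96 and 11.15. The GFP arrays were the highest of the 7 and papilloma 2 was the lowest. The difference by tumour type was 0.27 (SE 0.58), 0.39 (SE 0.31) with the GFP tag as a covariate, and 0.15 within the GFP pair.

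Tead1, a DNA-binding partner of YAP and TAZ, had the largest difference of the 9 by tumour type relative to its error. Its levels were 9.93, 9.80, 8.74 and 9.59 in carcinoma 1, 2, 3 and GFP and 9.62, 8.13 and 8.37 in papilloma 1, 2 and GFP. Papilloma 1 lay among the carcinoma arrays and carcinoma 3 close to the other papillomas, so the groups overlap. Carcinomas averaged 9.51 ± 0.54 (SD, n = 4) and papillomas 8.71 ± 0.80 (SD, n = 3). The difference was 0.81 (SE 0.44) with a limma adjusted p of 1 and an exact permutation p = 0.171. The dim probe set 1423434_at gave 0.58 (SE 0.30). Unlike Wwtr1, Tead1 did not separate the GFP arrays: they averaged 8.98 and the untagged arrays 9.24.

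Ctgf, a secreted matricellular protein and a standard readout of YAP and TAZ activity, varied most among the members. Its single probe set read 8.72, 7.33, 4.77 and 11.74 in carcinoma 1, 2, 3 and GFP. In papilloma 1, 2 and GFP it read 7.37, 8.35 and 11.75. The GFP arrays were highest and nearly equal, and carcinoma 3 was lowest. Carcinoma differed from papilloma by -1.02 (SE 1.74), by -0.65 (SE 0.89) with the tag as a covariate, by 0.11 without carcinoma 3 and by 0.28 without papilloma GFP, each of which turned the sign. Without carcinoma GFP the difference was -2.22 and without papilloma 1 it was -1.91. Among the 5 untagged arrays alone the level spanned 4.77 to 8.72, a wider span than for any other member.

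Cyr61, a relative of Ctgf with a like role, did not follow it on its brightest probe set, 1416039_x_at. There it was at 10.50, 10.82, 11.32 and 11.11 in carcinoma 1, 2, 3 and GFP and at 10.89, 10.81 and 11.33 in papilloma 1, 2 and GFP. Carcinoma 3, lowest for Ctgf, was the highest untagged array for Cyr61. The difference by tumour type was -0.07 (SE 0.25). It was 0.19 on 1438133_a_at, -0.49 on 1442340_x_at and -0.59 on 1457823_at, each within 1 SE of 0.

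Lats2, the kinase that restrains YAP and TAZ and is itself their target, was at 6.33, 6.72, 6.34 and 10.82 in carcinoma 1, 2, 3 and GFP on its brightest probe set. In papilloma 1, 2 and GFP it was at 6.80, 5.89 and 10.40. The GFP arrays lay more than 3 units above the others in both tumour types. The difference by tumour type was -0.14 (SE 1.47), and it was 0.21 (SE 0.26) with the tag as a covariate and 0.12 (SE 0.33) without the GFP arrays. It was -1.23 without carcinoma GFP and 1.21 without papilloma GFP.

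For the other 3 members the tumour types overlapped as well. Amotl2, a scaffold of the angiomotin family that holds YAP at junctions, ranged from 7.55 in carcinoma 3 to 8.33 in carcinoma GFP (difference 0.03, SE 0.25). Ajuba, a LIM protein that binds Lats kinases, ranged from 9.72 in papilloma GFP to 11.21 in carcinoma 2 (difference 0.34, SE 0.37). Without papilloma GFP the Ajuba difference was -0.01, and without papilloma 1 it was 0.69. Ankrd1, a nuclear ankyrin protein and target of YAP, ranged from 4.02 in carcinoma 3 to 4.72 in carcinoma GFP (difference -0.06, SE 0.22). Its levels on each array lay below the lower quartile of that array's genes, which was 4.69 to 4.95, so small differences of Ankrd1 are measured close to the dim end.

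**Figure D2:**
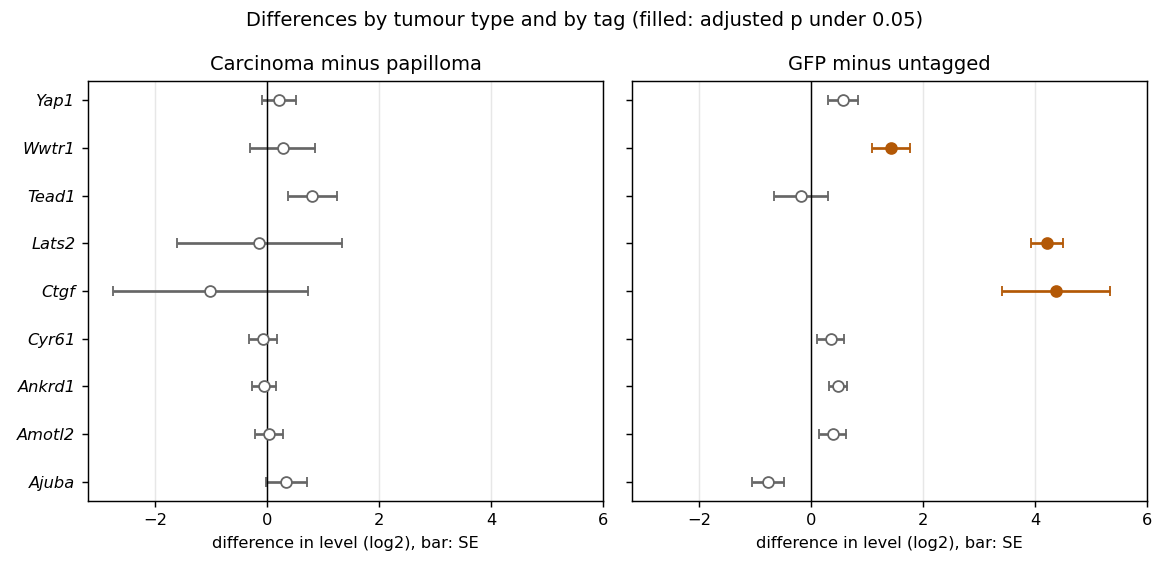
Differences in level (log2) for the 9 genes with 1 SE, by tumour type on the left and by GFP tag on the right. Filled points passed an adjusted p of 0.05: no gene by tumour type, and Wwtr1, Lats2 and Ctgf by tag.

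By tag, 3 of the 9 genes were higher in the GFP arrays and 0 were lower at an adjusted p of 0.05. The arrays with and without the tag were compared by limma with tumour type as a covariate. The same test called 11.9% of all genes higher and 7.93% lower, so many genes moved in both directions. The 9 members had a median difference of 0.48 log2 units, against -0.05 over all genes. Both GFP arrays lay above every untagged array for 5 members (Yap1, Wwtr1, Lats2, Ctgf and Ankrd1), which held for 21% of all genes. They lay below every untagged array for 1 member (Ajuba), which held for 19.9% of all genes. For Yap1 the gap was narrow, with papilloma GFP at 10.530 and papilloma 1, the highest untagged array, at 10.515. An exact two-sided permutation test of 2 against 5 arrays cannot go below 0.0952, and the members gave 0.0952 to 0.667.

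Ctgf rose by 4.37 log2 units (SE 0.97, limma adjusted p = 0.0222), or 20.7-fold. Lats2 rose by 4.21 (SE 0.28, adjusted p = 0.000199), or 18.5-fold. Wwtr1 rose by 1.42 (SE 0.34, adjusted p = 0.0294), or 2.67-fold. All 3 were higher in 2 of 2 GFP arrays than in any of the 5 others. With the mean of its 6 probe sets in place of the brightest, Lats2 differed by 1.45 (adjusted p = 0.00247). It passed in each alternative that was run, whereas Ctgf did not pass without carcinoma GFP (3.88, adjusted p = 0.248) or without papilloma GFP (4.80, adjusted p = 0.114). Wwtr1 did not pass without carcinoma 2 (1.43, adjusted p = 0.0646), carcinoma 3 (1.36, 0.0511), carcinoma GFP (1.60, 0.187) or papilloma GFP (1.25, 0.227).

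Of the 6 members that did not pass, Yap1 differed by 0.57 (SE 0.26, adjusted p = 0.196) and Ankrd1 by 0.48 (SE 0.16, adjusted p = 0.0935). Ankrd1 passed with a trended and robust variance (adjusted p = 0.0431) and, at 0.85, with the mean of its probe sets (0.0238). Amotl2 differed by 0.38 (SE 0.24) and Cyr61 by 0.35 (SE 0.24). Ajuba was at -0.78 (SE 0.28, adjusted p = 0.108), passed as lower with arrays centred on the gene median (-1.01, adjusted p = 0.0211) and was at 0.71 with arrays centred on keratinocyte markers. Tead1 was at -0.19 (SE 0.49), and at 1.30 with the keratinocyte centring. That centring, relative to markers which were themselves lower in the GFP arrays, shifted the median of all genes by 1.48 log2 units. It called all 9 members and 15608 of 18193 genes higher. Centring on the gene median shifted the median of all genes by -0.23 and kept 3 called members as higher. It called 1759 of 18193 genes higher and 2442 lower. Calls in the higher direction were then 41.9% of all calls, against 60% in the deposited scale and 99.2% with the keratinocyte centring.

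Probe sets of the same gene did not all tell the same story. Both GFP arrays lay above the untagged arrays on 13 of the 22 probe sets, against 17.8% of all single-symbol probe sets, and 9 of the 22 passed as higher when the fit was run over all probe sets, against 9.15% of all of these. The 3 probe sets of Wwtr1 all passed, with differences of 1.42, 2.01 and 2.33. For Lats2, 4 of 6 passed, at 4.21 on 1439441_x_at, 2.49 on 1437101_at, 1.53 on 1425420_s_at and 0.70 on 1426156_at, while 1419678_at and 1419679_at gave -0.12 and -0.11. On these last, all 7 arrays lay between 5.93 and 6.28 and between 3.68 and 3.89.

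Cyr61 was split as well. The probe sets 1416039_x_at and 1438133_a_at gave 0.35 (SE 0.24) and 0.18 (SE 0.32), but 1442340_x_at and 1457823_at gave 1.98 (SE 0.58, adjusted p = 0.0673) and 2.01 (SE 0.56, adjusted p = 0.0572). On the latter pair papilloma GFP was at 11.26 and 11.23, carcinoma GFP at 9.44 and 9.42, and carcinoma 3, the highest untagged array, at 9.40 and 9.28. Yap1 gave 0.57 on 1448363_at and -0.48 on 1416487_a_at, neither of which passed. Ankrd1 gave 0.48 on 1420991_at and 1.23 (SE 0.25, adjusted p = 0.0208) on the dimmer 1420992_at, where carcinoma GFP was at 5.38 and papilloma GFP at 4.47, against 3.51 to 4.22 in the others. Probe sets ending in _x_at or _s_at can read related sequences. Where each probe set lies along its transcript was not used here, so the part of RNA length, which differed with the tag, was not tested.

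**Figure D3:**
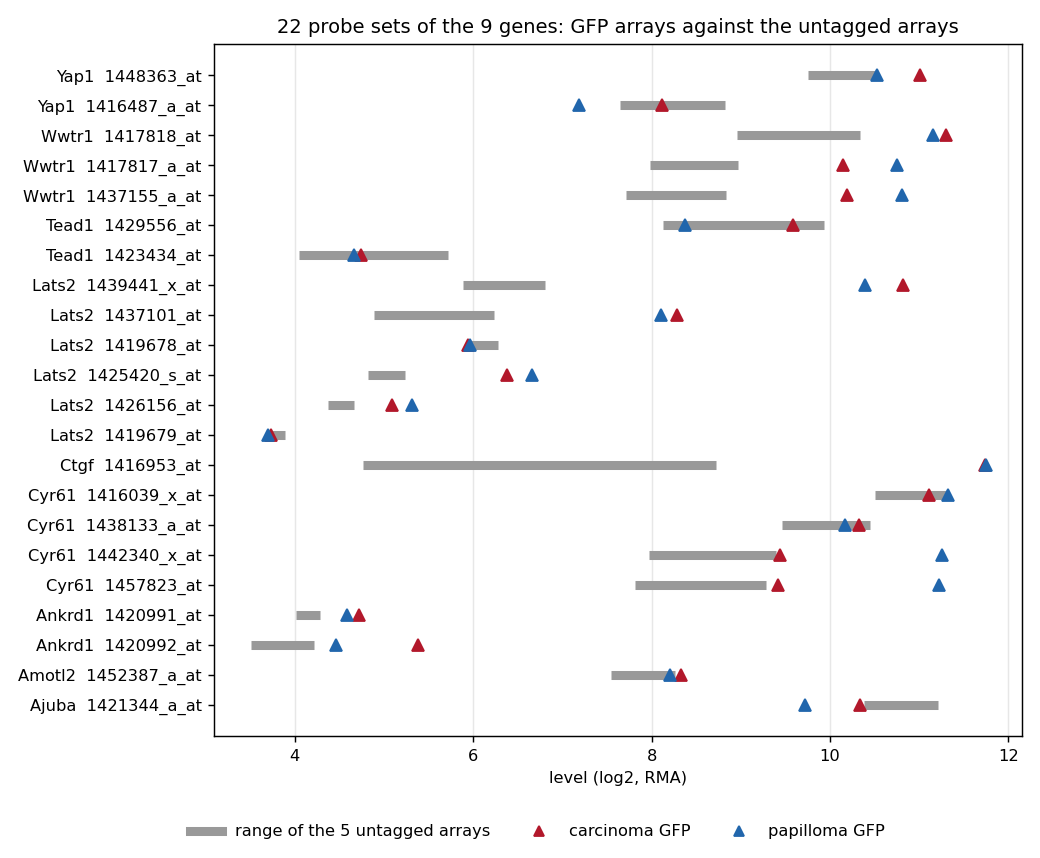
Level (log2) on each of the 22 probe sets of the 9 genes. Grey bars span the 5 untagged arrays and triangles are the GFP arrays. Both triangles lie above the bar for 13 probe sets, among them all 3 of Wwtr1 and 4 of 6 of Lats2.

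The difference by tumour type was also compared between the GFP pair and the untagged arrays. The interaction of tag and tumour type called 0 of 9 members and 0 of all genes (0%), with 389 genes at an unadjusted p under 0.05. A trended and robust variance called 3 genes. For Ctgf the GFP pair differed by -0.004 and the untagged arrays by -0.92, an interaction of 0.92 (SE 2.08). For Tead1 they differed by 1.22 and 0.61, an interaction of 0.60 (SE 1.04). The other interactions lay between -0.35 and 0.49. With these errors, differences of 1 or 2 log2 units between the pairs would not have been visible for Ctgf.

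Other genes of the pathway were taken from lists drawn up by function. Of 22 genes of the kinase cascade and its upstream regulators 21 were measured, and Stk3 was not analysed here. By tag, 6 of 21 were higher and 2 lower, with a median of 0.29, where 11.9% of all genes were higher and 7.93% lower. The split was 6 and 3 with the gene median centring, which called 1759 of 18193 genes higher and 2442 lower. It was 18 and 0 with the keratinocyte centring, which called 15608 genes higher and 118 lower. The atypical cadherin Dchs1 had means of 8.25 with the tag and 5.15 without (difference 3.09, SE 0.29), and its partner Fat4 averaged 7.36 and 4.44 (2.95, SE 0.43). Amot, a junctional scaffold for YAP, averaged 7.92 and 4.88 (3.06, SE 0.25), and Taok3, a kinase of the family that activates Mst kinases, 8.60 and 6.16 (2.49, SE 0.52). Wwc2, also higher, averaged 9.47 and 7.97, and Ptpn14 9.56 and 8.07. The 2 lower genes were Taok1 at -1.46 (SE 0.33) and Mob1b, a coactivator of Lats kinases, at -1.17 (SE 0.31), but with the keratinocyte centring they stood at 0.03 and 0.32 and did not pass. Lats1, the relative of Lats2, was at -0.90 (SE 0.26, adjusted p = 0.0565), passed as lower with the gene median centring (-1.14) and stood at 0.58 with the keratinocyte centring.

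By tumour type 0 of these 21 genes passed, although 17 had a higher carcinoma mean (median 0.24, against -0.02 over all genes). The share of all genes with a higher carcinoma mean was not counted. Papilloma 2 had the lowest mean of the list, 7.68. Papilloma 1 and GFP were at 8.48 and 8.63, and the carcinomas at 8.18 to 8.93. The largest differences were 0.68 (SE 0.58) for Taok1, 0.57 (SE 0.31) for Frmd6, 0.43 (SE 0.47) for Map4k4 and -0.41 (SE 1.10) for Dchs1. Relative to its error the difference of Frmd6 was the clearest of these, and its adjusted p was still 1.

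Among 7 TEAD factors and Vgll cofactors, which compete with YAP for TEAD, 0 passed by tag and 0 by tumour type. Vgll3 was at 2.09 (SE 0.97, adjusted p = 0.193) by tag, Vgll4 at 1.09 (SE 0.33, adjusted p = 0.0634), Tead2 at 0.68 (SE 0.61) and Tead3 at -0.59 (SE 0.19, adjusted p = 0.0796). Vgll3 ranged from 4.29 in carcinoma 3 to 8.08 in carcinoma 2 among untagged arrays, so untagged carcinomas differed among themselves by more than the tag difference. Centring on the gene median called Tead3 lower (-0.82). The keratinocyte centring called all 7 higher, as it did 15608 of 18193 genes. By tumour type the largest were Tead2 at 0.68 (SE 0.59), Vgll3 at 0.56 (SE 1.13), Vgll4 at -0.36 (SE 0.48) and Vgll2 at -0.15 (SE 0.19).

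The list of 16 further target genes of YAP and TAZ did not move as one. By tag, 5 of 16 were higher and 1 was lower, with a median of -0.07, against 11.9% and 7.93% of all genes. The split was 5 and 3 with the gene median centring, which called 1759 of 18193 genes higher and 2442 lower. There F3 (-1.84, adjusted p = 0.048) and Nuak2 (-1.60, adjusted p = 0.0244) also passed as lower. With the keratinocyte centring the split was 11 and 1, where 15608 genes were called higher and 118 lower. Ccdc80, a secreted matrix protein, read 12.16 and 10.28 in carcinoma GFP and papilloma GFP and 5.29 to 6.70 elsewhere, a difference of 5.24 (SE 0.57). Tgfb2, a growth factor of the TGF-beta family, differed by 3.49 (SE 0.65), Rbms3 by 2.43 (SE 0.44), Crim1 by 1.82 (SE 0.31) and Asap1 by 1.21 (SE 0.28). Igfbp3, a binding protein of insulin-like growth factors, was at 3.46 (SE 1.26, adjusted p = 0.11), with 12.09 in carcinoma 1 close to the GFP arrays. Gadd45a, a gene of the response to DNA damage, fell by 2.79 (SE 0.46, adjusted p = 0.00759), and it was also lower with both other centrings (-3.03 and -1.31). By tumour type 0 of 16 passed, and 12 had a higher carcinoma mean (median 0.20). F3, the tissue factor of clotting, was at 1.35 (SE 0.76), Tgfb2 at -1.17 (SE 1.34), Myof at 0.80 (SE 0.59) and Gadd45a at 0.79 (SE 1.05).

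Ctgf and Cyr61 are also induced within minutes of cell stress, so genes induced early during cell isolation stand beside them. Of 14, 8 were lower in the GFP arrays and 0 higher, where 7.93% and 11.9% of all genes were. The median was -0.85, and the mean of the list was 10.71 to 11.05 in the GFP arrays against 11.55 to 12.10 in the others. Btg2 was at -2.60 (SE 0.34), Ier3 at -2.37 (SE 0.23), Fosb at -1.92 (SE 0.35) and Nr4a1 at -1.74 (SE 0.30). The list did not move as one: its genes that did not pass lay between -0.46 and 0.33, and 2 of the 14 had a higher mean in the GFP arrays. With the keratinocyte centring 2 of the 14 were lower and 7 higher, where 118 of 18193 genes were lower and 15608 higher. By tumour type 0 passed, with Junb at -0.42 (SE 0.27), Ier3 at 0.25 (SE 0.84), Nr4a1 at 0.20 (SE 0.66) and Ier2 at -0.17 (SE 0.26). The part of cell isolation in the Ctgf and Cyr61 levels was not tested.

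**Figure D4:**
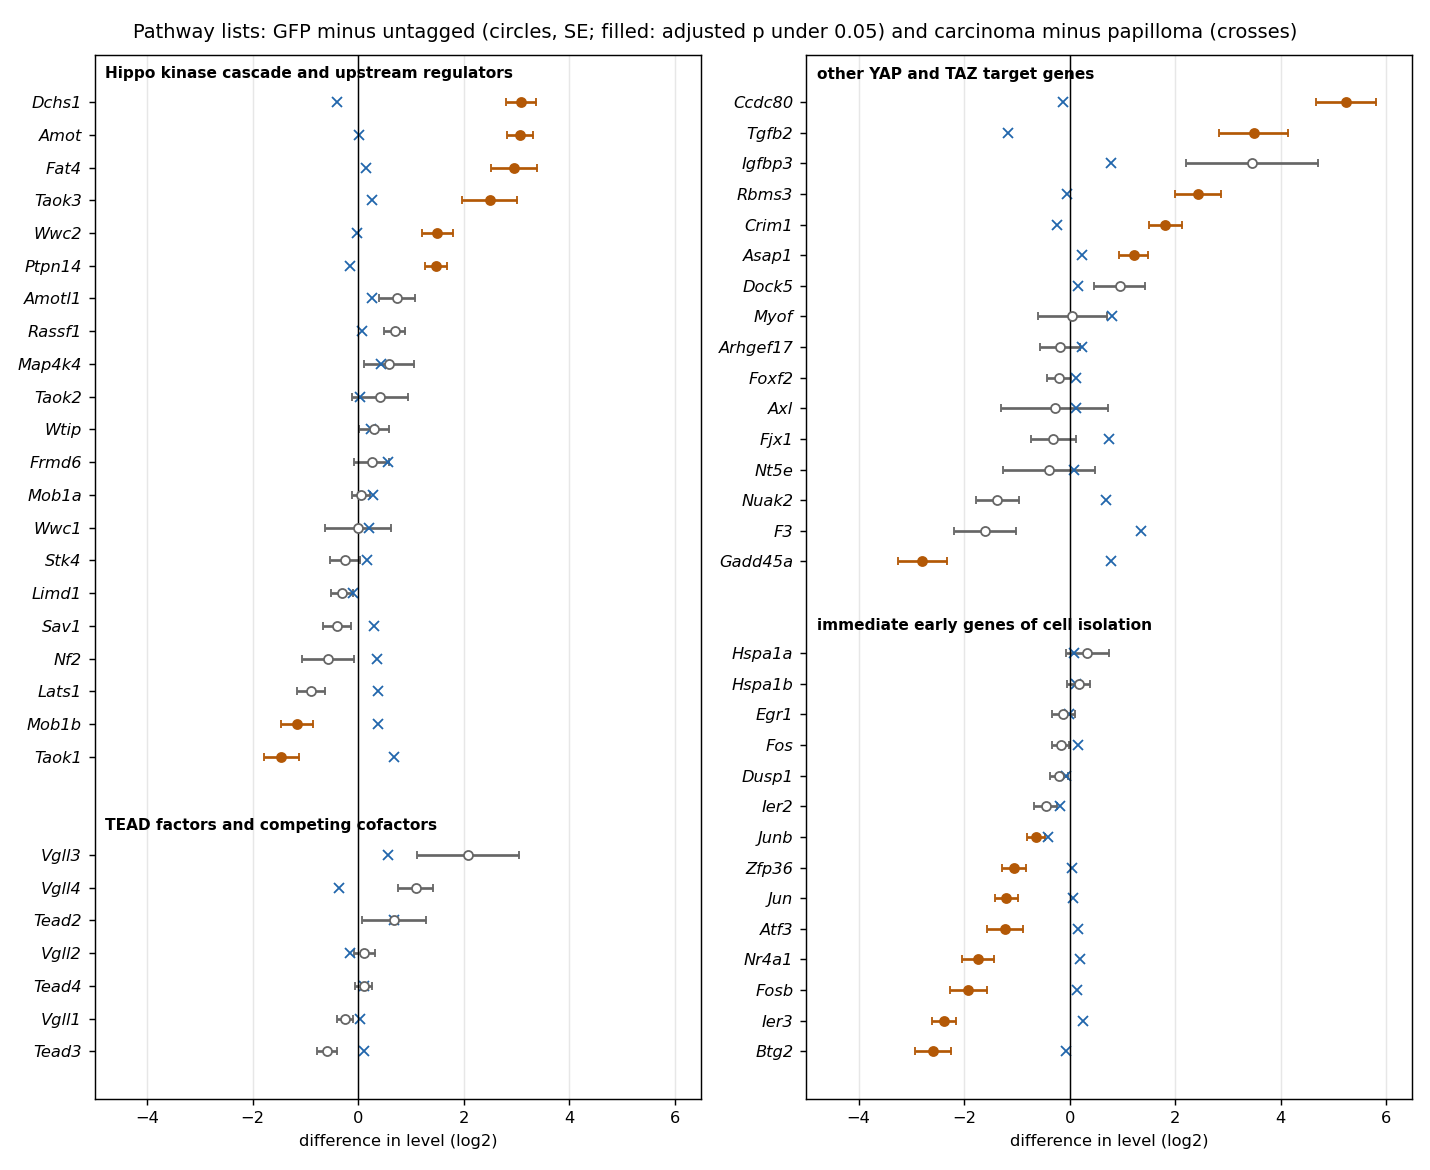
Differences in level (log2) for 4 lists of pathway and early response genes. Circles with SE bars are GFP minus untagged arrays, filled at an adjusted p of 0.05, and crosses are carcinoma minus papilloma. Filled points lie on both sides of 0 in the kinase list (6 higher, 2 lower) and the target list (5 and 1), and the early genes that passed lie below 0. With arrays centred on keratinocyte markers the 2 lower kinase list genes stood just above 0.

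Genes with the most similar patterns were sought for the 3 members that spanned at least 2 log2 units over the 7 arrays. Likeness was the root mean square difference of levels centred per gene. The nearest to Ctgf were Vim, a mesenchymal intermediate filament (0.32), Col3a1, a fibrillar collagen (0.39), and Bgn, a matrix proteoglycan (0.54). The nearest to Lats2 were Plcb1 (0.16), Myzap (0.19) and Calml4 (0.19), and to Wwtr1 Dnmbp (0.08), Gxylt1 (0.08) and Phlpp1 (0.11). The collagen Col3a1 had means of 13.36 with the tag and 9.08 without, and Plcb1 9.79 and 5.44. These genes were chosen for following members that were higher with the tag, so their own tag differences are a description.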

How the data were processed

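Sorted tumour cells were measured on 7 arrays. The authors deposited log2 values normalized with RMA, per the labels' protocols; RMA and affy stand in the submitters' processing notes. Software versions, the probe grouping and the set of arrays normalized jointly are not stated there. The log2 scale was read from the values (2.72 to 14.51). RMA equalises array distributions, so a shift of many genes one way is partly absorbed. The array is the strip format of the 430 design by its labels, and genes were named with a 2016 annotation of the standard format.

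Each gene was represented by its single-symbol probe set with the highest mean, without control probe sets, and dim probe sets were kept. Groups came from the titles. limma 3.58.1 (lmFit, eBayes) in R 4.3.3 was fitted to all 18193 genes, with Benjamini-Hochberg adjustment over all of them. The fits were tested on simulated data. Permutation tests used scipy 1.17.1, with 35 or 21 arrangements. The alternatives were a GFP covariate, no GFP arrays, a replicate block, probe set means, a filter on dim genes, 2 centrings, array weights, a trended variance and leaving out each array.

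The members and lists were chosen with earlier results of these data known. The named genes were the 9 members, 8 markers, up to 4 genes per pathway list and comparison with the largest difference, and the 3 nearest genes. Lats1, Wwc2, Ptpn14, Mob1b, Nuak2, Rbms3, Crim1 and Asap1 were named after their values were seen, as was Taok1 for its difference by tag.

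Replicate labels 1, 2 and GFP occur in both tumour types, in the titles. Deviations from the group means correlated at 0.476, 0.194 and 0.861 across genes for the pairs, above the limit of 0.1, so they were treated as possible pairs. Every unlike-numbered combination of untagged arrays also passed it, such as carcinoma 2 with papilloma 1 at 0.683, and 0.194 was the lowest among untagged arrays. The group means include the GFP arrays, which pushes the untagged deviations the same way. This check therefore cannot tell whether the arrays were paired.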

Additional observations from a re-analysis of the deposited data

Results flagged for a closer look

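Lats2 in carcinoma GFP, at 10.8, lay far from the other 3 carcinoma arrays, at 6.33 to 6.72, by Dixon's test of a single distant value (its gap to the nearest was 0.913 of the group's range, above the 95% limit for 4 arrays). It was the only one of 18 groups tested (carcinoma and untagged arrays for each of the 9 genes) to pass, and chance passes about 1 in 20. The other 3 carcinoma arrays are untagged, so this result restates the tag difference of Lats2 given above. Papilloma GFP was at 10.4, and papillomas, with 3 arrays, were not tested this way.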

How the results depend on the processing

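By tumour type, 0 members and 0 genes passed in all 15 alternatives. Signs of the members' small differences turned. The replicate block gave 0.26 for Lats2, 0.11 for Ctgf and 0.03 for Ankrd1, and changed no call. Label 3 occurs only in carcinoma, so the block takes up that array. Its differences for the members equal those without carcinoma 3 and say nothing separate about pairing. The GFP covariate gave Lats2 0.21, leaving out both GFP arrays gave Lats2 0.12 and Cyr61 0.03, probe set means gave Ankrd1 0.15, and array weights gave Yap1 -0.02. Leaving out each array gave -0.05 to 0.37 for Yap1, -0.29 to 0.81 for Wwtr1, -1.23 to 1.21 for Lats2, -2.22 to 0.28 for Ctgf, -0.20 to 0.09 for Cyr61, -0.20 to 0.06 for Ankrd1, -0.12 to 0.18 for Amotl2 and -0.01 to 0.69 for Ajuba. Tead1 (0.52 to 1.26) was the only member to keep its sign in all of these. By tag, leaving out each array gave 861 to 3955 genes and 1 to 3 members, and -0.50 to 0.16 for Tead1. Without a GFP array the lone tagged array is assumed to vary like the others. The lowest count was without carcinoma GFP, and it was 1462 without papilloma GFP, against 3601 with all arrays. Keratinocyte centring gave 15726 genes and 9 members, with Tead1 at 1.30 and Ajuba at 0.71. The tag by type interaction called 3 genes with a trended and robust variance, and with probe set means it was -0.05 for Tead1 and for Lats2. Ankrd1 fell under the filter on dim genes and has no value there. That filter used the mean over all arrays, which the GFP arrays raised for Lats2 (10.6 with the tag, 6.42 without). Its pass under the filter is therefore not independent of the tag difference. The cause of these changes was not tested, and leaving out an array changes both the number of arrays and which arrays remain. Signal over background could not be judged, since RMA values carry no detection call.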
